A study of Mus musculus with 8 samples.

Results

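Non-classical monocytes, the Ly6C-low cells of mouse blood, were followed here through 8 genes of their program: Nr4a1, Cx3cr1, Ace, Treml4, Spn, Itgax, Eno3 and Fabp4. The members were taken from the count table by an exact match of the gene symbol, and 8 of the 8 were found among 21878 symbols. The table was made from the peripheral blood of wild-type female C57BL/6 mice of 6 to 8 weeks. The stress group (4 samples) was restrained for 6 hours in a ventilated tube, the control group (4 samples) stayed in its cage, and both groups went without food and water. Whole blood was sequenced without sorting, so that fewer cells of a type and less RNA per cell cannot be told apart. The sources do not state whether a sample is 1 mouse or a pool, and p-values then measure only the spread between these samples.

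In mouse blood, classical Ly6C-high monocytes leave the bone marrow and in part convert into non-classical monocytes, which patrol the wall of small vessels and clear debris. The conversion and survival of these cells depend on the nuclear receptor Nr4a1, and their survival in the circulation also depends on Cx3cr1, the receptor of the membrane-bound chemokine Cx3cl1. The other members are surface molecules (Treml4, Spn, Itgax), enzymes (Ace, Eno3) and a lipid carrier (Fabp4) that are commonly used to tell the 2 monocyte classes apart. Several of them are made by other blood cells as well, such as Spn by T cells and Cx3cr1 by NK cells.

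All 8 genes passed the filter on low counts and were tested, with 48 to 5987 counts per sample. In the stress group, 6 of the 8 had a log2 fold change below 0 and 2 (Cx3cr1 and Fabp4) above 0, with a median of -0.28, against -0.025 over all 11718 tested genes. At the thresholds of the study, an adjusted p below 0.01 and an absolute log2 fold change above 1, edgeR's quasi-likelihood test called 0 of the 8 genes in either direction, against 0.0171% of all tested genes called lower and 1.69% called higher. DESeq2 and limma-voom also called 0 of them, and 2 were lower at an unadjusted p under 0.05 in edgeR. At an adjusted p below 0.05 with no fold threshold, Ace and Eno3 were lower, 2 of 8 members against 3.69% of all tested genes, and 0 members were higher against 10.4% of all tested genes. In 1 of the 8, Eno3, every stress sample lay below every control sample, which held for 9.87% of all tested genes. Values are given as CPM, counts relative to the TMM-normalised library size of each sample, so that a log2 fold change of 0 stands for the shift that most genes shared.

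Control libraries held 31471145 to 39014775 counts and stress libraries 25978683 to 29655725, of which haemoglobin transcripts took 51.9% to 63.8% and 61.2% to 75.5%. TMM factors, which correct for such shares, were 1.01 to 1.77 for control and 0.507 to 1.10 for stress libraries. Scaled by total counts alone, the tested genes had a median of -0.82 on the log2 scale, and by total counts outside the haemoglobin genes a median of -0.43. Calls over the whole table turned with the scaling, from 198 higher and 2 lower with TMM to 14 and 729 on total counts alone and 57 and 136 outside the haemoglobin genes. On either of these scalings 6 of the 8 members, the 6 that lay below 0 with TMM, were lower at an adjusted p below 0.05 in edgeR, as were 49.6% of all tested genes on total counts alone and 33.7% outside the haemoglobin genes.

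**Figure D1:**
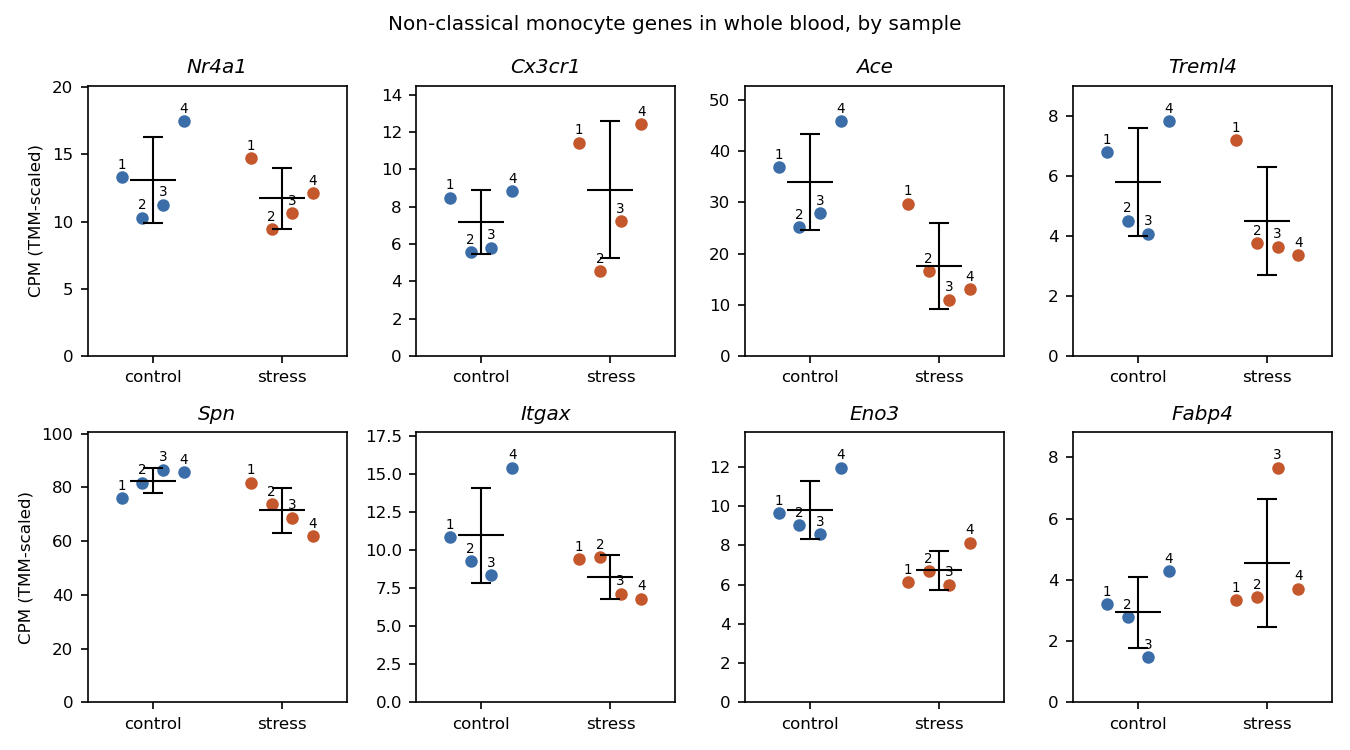
Level of each member in the 8 samples, in CPM scaled by the TMM-normalised library size (vertical axis, linear from 0), with control samples in blue and stress samples in orange. The number beside a point is the replicate, and the black bars are the mean and SD of 4 samples. Eno3 is the member without overlap between the groups, and stress replicate 1 holds the highest stress value of Nr4a1, Ace and Treml4.

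Nr4a1 (ENSMUSG00000023034; GRCm38 chromosome 15, 101254269 to 101274795, plus strand) encodes the orphan nuclear receptor needed for the formation and survival of Ly6C-low monocytes, and it is also an immediate early gene of many cells. The 250 bases upstream of its RefSeq start (GRCm38.p6, chr15:101266596-101266845, plus strand, 5′ to 3′) are shown because the response of Nr4a1 to early signals was described through repeats of a CRE-like letter run in this promoter. The capitals mark TGCGTCA, searched on both strands.
Nr4a1 upstream window: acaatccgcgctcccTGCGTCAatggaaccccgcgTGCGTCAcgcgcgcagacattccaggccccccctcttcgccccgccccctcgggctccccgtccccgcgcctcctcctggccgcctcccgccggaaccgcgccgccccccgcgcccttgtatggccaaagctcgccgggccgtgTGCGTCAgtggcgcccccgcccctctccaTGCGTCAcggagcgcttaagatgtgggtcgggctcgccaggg
The run occurred 4 times in the window, at positions -235 to -229, -215 to -209, -71 to -65 and -42 to -36 from the start. Of 32851 RefSeq upstream windows of the same length, that of Nr4a1 included, 1.75% held the run at least once. Only 1 held it 4 times or more, which is the window of Nr4a1 itself. The annotation also holds starts of Nr4a1 further upstream, and no count distinguishes between them. The windows of 7 of the 8 members were found in the RefSeq table, and Fabp4 was not among them.

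Nr4a1 stood at 13.3, 10.3, 11.3 and 17.5 CPM in control replicates 1 to 4 and at 14.7, 9.41, 10.6 and 12.1 CPM in stress replicates 1 to 4. The groups overlapped over most of their range, with the highest value in control replicate 4 and the lowest in stress replicate 2. With TMM scaling the log2 fold change was -0.15 (95% interval -0.53 to 0.23, edgeR, adjusted p = 0.61), and without control replicate 4 it was 0.047. On total counts alone it was -0.87, close to the median of all genes on that scale.

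The rest of the Nr4a family and other immediate early genes were read from a list of 12 genes. Of them 10 had a log2 fold change above 0 and 2 below, with a median of 0.49. At an adjusted p below 0.05, 2 were higher (Junb and Ier2) and 1 was lower (Egr3). Junb, a subunit of the AP-1 factor, was at 25.9 ± 2.81 CPM in the control group and 42.7 ± 4.83 CPM in the stress group (SD, n = 4 each; log2 fold change 0.72, edgeR, adjusted p = 0.00206). Ier2 was at 14.3 ± 0.892 and 17.9 ± 0.872 CPM, and Egr3, an early zinc finger factor of lymphocytes, at 5.17 ± 1.03 and 2.99 ± 0.589 CPM (SD, n = 4 each). The paralogues of Nr4a1 were scarce and did not pass. Nr4a2 had 0 to 13 counts per sample (log2 fold change -0.97, 95% interval -2.62 to 0.68) and Nr4a3 had 14 to 70 counts (0.59, 95% interval -0.12 to 1.30).

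Cx3cr1 (ENSMUSG00000052336; GRCm38 chromosome 9, 119901616 to 120069879, minus strand), the fractalkine receptor, is high on non-classical and low on classical monocytes. It stood at 8.48, 5.57, 5.79 and 8.83 CPM in the control samples and at 11.4, 4.54, 7.21 and 12.4 CPM in the stress samples, in the order of the replicates. Stress replicates 1 and 4 lay above every control sample and stress replicate 2 below every one. Its log2 fold change was 0.34 (95% interval -0.27 to 0.94, edgeR, adjusted p = 0.435), and it was -0.32 on total counts alone and -0.018 on total counts outside the haemoglobin genes. The 8 NK cell markers, of which 0 passed at an adjusted p below 0.05 (edgeR; 1 was lower at an unadjusted p under 0.05), summed to 56.3 to 100.4 CPM in the control group and 48.6 to 116.4 CPM in the stress group. Their part in Cx3cr1 was not tested. Exons of Cx3cr1 share 78 bases, 1.73% of their length, with Gm33858 on the opposite strand. Its ligand Cx3cl1, which is made by endothelium and epithelium, had 0 to 10 counts per sample and was not tested. Of the proteases that release the ligand from the membrane, Adam10 rose from 48.6 ± 1.59 to 63.8 ± 6.23 CPM (SD, n = 4 each; edgeR, adjusted p = 0.0243), and Adam17 was at 25.5 ± 2.21 and 24.3 ± 2.15 CPM (adjusted p = 0.726).

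Treml4 (ENSMUSG00000051682; GRCm38 chromosome 17, 48264295 to 48275360, plus strand), a receptor of the TREM family that binds dead cells, marks non-classical monocytes and some macrophages. Its control values were 6.79, 4.51, 4.07 and 7.82 CPM and its stress values 7.18, 3.76, 3.64 and 3.36 CPM. Stress replicates 2, 3 and 4 lay below every control sample, while stress replicate 1 lay above 3 of the 4. Its log2 fold change was -0.35 (95% interval -0.95 to 0.25, edgeR, adjusted p = 0.412), and without stress replicate 1 it was -0.66 (adjusted p = 0.108). Of its relatives, Treml2 was higher (log2 fold change 0.55, edgeR, adjusted p = 0.0252), and Trem2, with 2 to 20 counts per sample, did not pass (0.75, 95% interval -0.57 to 2.07). Treml1, a platelet receptor, rose from 53.7 ± 12.6 to 110.0 ± 21.4 CPM, and Trem1, an activating receptor of neutrophils and monocytes, from 3.93 ± 1.28 to 10.1 ± 2.05 CPM (SD, n = 4 each; log2 fold changes 1.03 and 1.38, edgeR, adjusted p = 0.00275 and 0.00363). Both were called at the thresholds of the study. Tyrobp, the adaptor through which several of these receptors signal, rose from 20.5 ± 4.53 to 38.9 ± 4.22 CPM (adjusted p = 0.00199, same test).

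Spn (ENSMUSG00000051457; GRCm38 chromosome 7, 127132232 to 127137823, minus strand) encodes the sialomucin CD43, by which Ly6C-low monocytes are often gated. Per kilobase of exon it was the most abundant of the 8 genes in the control group. Its control values of 76.0, 81.7, 86.5 and 85.7 CPM had the smallest SD relative to the mean of any member (5.81%), and its stress values were 81.8, 73.6, 68.7 and 61.8 CPM. Stress replicates 2, 3 and 4 lay below every control sample, and stress replicate 1 lay within the control range. The log2 fold change was -0.21 (95% interval -0.45 to 0.04, edgeR, adjusted p = 0.239). T cells carry Spn too, and their 7 tested markers summed to 420.2 to 453.8 CPM in the control group and 379.0 to 470.2 CPM in the stress group (3 higher, 4 lower, median log2 fold change -0.03).

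Itgax (ENSMUSG00000030789; GRCm38 chromosome 7, 128129547 to 128150657, plus strand) encodes the integrin subunit CD11c of non-classical monocytes and dendritic cells. Control values were 10.9, 9.27, 8.35 and 15.4 CPM and stress values 9.41, 9.55, 7.13 and 6.82 CPM. Stress replicates 3 and 4 lay below every control sample, and control replicate 4 stood well above the rest. Stress against control gave a log2 fold change of -0.41 (95% interval -0.82 to 0.01, edgeR, adjusted p = 0.167), and without control replicate 4 it was -0.18 (adjusted p = 0.518). The partner subunit Itgb2 was higher in the stress group (149.4 ± 19.2 and 200.7 ± 8.22 CPM, SD, n = 4 each; adjusted p = 0.0444), and the related subunit Itgam was at 33.1 ± 8.75 and 52.1 ± 13.6 CPM (adjusted p = 0.0536). The 8 dendritic cell markers were higher in 6, of which 3 passed an adjusted p of 0.05, and summed to 12.4 to 14.98 CPM in the control group and 16.5 to 20.5 CPM in the stress group, the other way from Itgax.

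Ace (ENSMUSG00000020681; GRCm38 chromosome 11, 105967945 to 105989964, plus strand) encodes the angiotensin-converting enzyme, which non-classical monocytes carry on their surface. It had the largest log2 fold change of the 8 members. Control replicates 1 to 4 stood at 36.8, 25.2, 27.9 and 45.8 CPM and stress replicates 1 to 4 at 29.7, 16.6, 11.0 and 12.99 CPM. Stress replicates 2, 3 and 4 lay far below every control sample, and only stress replicate 1 reached into the control range. The mean was 33.9 ± 9.35 CPM in the control group and 17.6 ± 8.43 CPM in the stress group (SD, n = 4 each), a log2 fold change of -0.94 (95% interval -1.55 to -0.33, edgeR, adjusted p = 0.0451). Without stress replicate 1 the log2 fold change was -1.29 (adjusted p = 0.00518), which passed both thresholds of the study. With each of the 8 samples left out in turn, the adjusted p stayed below 0.05 in 2 fits, those without stress replicate 1 and without control replicate 2, and reached 0.223 without stress replicate 3. It was also above 0.05 with no filter on low counts (0.170) and with a filter of 10 counts in every sample (0.0594). Ace was lower on all scalings tried, by -1.66 on total counts alone and -1.31 on total counts outside the haemoglobin genes. Exons of Ace share 295 bases, 5.58% of their length, with Gm11651 on the opposite strand.

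Eno3 (ENSMUSG00000060600; GRCm38 chromosome 11, 70657202 to 70662513, plus strand) encodes the beta subunit of enolase, a glycolytic enzyme otherwise typical of muscle. Control values were 9.64, 9.01, 8.58 and 11.9 CPM and stress values 6.11, 6.68, 6.00 and 8.13 CPM. The highest stress sample, replicate 4, lay just under the lowest control sample, replicate 3. The log2 fold change was -0.53 (95% interval -0.84 to -0.21, edgeR, adjusted p = 0.0315). With each sample left out in turn, the adjusted p was below 0.05 in 2 of 8 fits, those without control replicate 3 and without stress replicate 4, and otherwise lay at up to 0.0901 (without control replicate 4). Of 8 skeletal muscle markers 6 had too few counts to be tested, among them Ckm with 1 to 13 counts per sample and Myh4 with 0 counts in every sample. The 2 tested ones did not pass: Tnnt3, with 7 to 88 counts, had a log2 fold change of -0.996 (edgeR, adjusted p = 0.0942, unadjusted p = 0.0207) and Tnni2, with 6 to 27 counts, one of 0.86 (adjusted p = 0.299). The 8 markers summed to 1.47 to 2.24 CPM in control and 1.21 to 3.34 CPM in stress samples, and their part in Eno3 was not tested. The common enolase gene Eno1 was at 88.9 ± 7.56 CPM in the control group and 107.0 ± 11.2 CPM in the stress group (SD, n = 4 each; log2 fold change 0.27, adjusted p = 0.147, edgeR), so that the 2 enolase genes went in opposite directions, a difference that was not tested.

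Ace and Eno3 are the members that were lower at an adjusted p below 0.05, and their upstream windows are shown side by side for that reason (both plus strand, 5′ to 3′, GRCm38.p6). The window of Ace is chr11:105967698-105967944, of which the last 3 of 250 bases are left out as exon, and that of Eno3 is chr11:70656926-70657175. The letter runs searched on both strands were TGCGTCA, TGACGTCA (the full cAMP response element), AAAGGTCA (the NR4A monomer site), GAGGAAGT (a PU.1 core), GGGCGG (a GC box), CCAAT and TATAAA, and the capitals mark every match.
Ace upstream window: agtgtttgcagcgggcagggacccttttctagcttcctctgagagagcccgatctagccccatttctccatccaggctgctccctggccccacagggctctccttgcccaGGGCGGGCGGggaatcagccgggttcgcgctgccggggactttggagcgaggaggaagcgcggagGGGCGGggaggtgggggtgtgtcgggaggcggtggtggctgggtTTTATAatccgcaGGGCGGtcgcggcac
Eno3 upstream window: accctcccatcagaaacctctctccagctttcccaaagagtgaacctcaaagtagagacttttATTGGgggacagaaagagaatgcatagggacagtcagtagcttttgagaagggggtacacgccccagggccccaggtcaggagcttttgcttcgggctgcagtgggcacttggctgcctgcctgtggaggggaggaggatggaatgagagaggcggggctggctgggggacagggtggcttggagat
Ace held GGGCGG 4 times, 2 of the matches overlapping, as did 4.09% of all windows at 4 times or more, and TATAAA on the minus strand at -31 to -26, a run found in 12.4% of windows. Eno3 held only CCAAT, on the minus strand at -187 to -183, as 33.8% of windows did. AAAGGTCA, found in 1.34% of all windows, occurred in 0 of the members' windows, which says only that these letters are not in these bases. A second RefSeq start of Ace lies further into the gene, and its window held CCAAT once.

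Fabp4 (ENSMUSG00000062515; GRCm38 chromosome 3, 10204088 to 10208576, minus strand), a carrier of fatty acids in adipocytes, capillary endothelium and some monocytes and macrophages, was the least abundant member. It had 118, 144, 103 and 136 counts in the control samples and 75, 74, 101 and 116 counts in the stress samples. In CPM this was 3.21, 2.79, 1.49 and 4.29 against 3.34, 3.43, 7.67 and 3.71. Stress replicate 3, the library with the smallest TMM factor, stood far above the other samples, and without it the stress values lay within the control range. The log2 fold change was 0.61 (95% interval -0.13 to 1.35, edgeR, adjusted p = 0.243), and -0.17 on total counts alone. Of 8 markers of adipocytes and endothelium 5 had too few counts to be tested, among them the adipocyte genes Adipoq (0 to 5 counts per sample) and Plin1 (0 to 2). The endothelial receptor Kdr, with 22 to 105 counts per sample, was higher in the stress group without overlap (log2 fold change 0.75, edgeR, adjusted p = 0.0465), and Cdh5, with 1 to 29 counts, had a value of 0.57 and did not pass. Vwf, which platelets also hold, rose from 181.1 ± 51.4 to 359.4 ± 67.0 CPM (SD, n = 4 each; edgeR, adjusted p = 0.00872) and made up most of that list's sum, which was 129.2 to 233.0 CPM in control and 270.1 to 427.7 CPM in stress samples. The part of endothelial cells in Fabp4 was not tested. The relative Fabp5 was at 0.576 ± 0.306 and 0.958 ± 0.492 CPM and did not pass (adjusted p = 0.368).

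**Figure D2:**
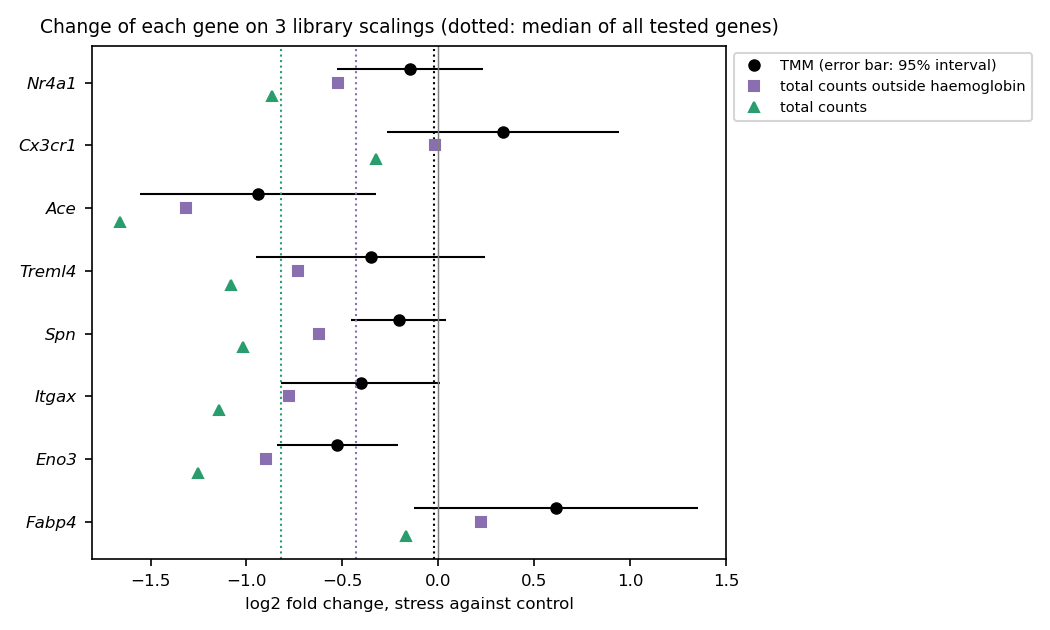
Log2 fold change of each member, stress against control (horizontal axis), on TMM scaling (black circles with 95% interval), on total counts outside the haemoglobin genes (purple squares) and on total counts (green triangles). Dotted lines are the median of all 11718 tested genes on the same scaling, -0.025, -0.43 and -0.82. Nr4a1, Ace, Treml4, Spn, Itgax and Eno3 lie left of the matching line and Fabp4 and Cx3cr1 right of it on each of the 3 scalings. Only the intervals of Ace and Eno3 do not reach 0.

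Compared per kilobase of exon, the level of the 8 genes in the control group ran in the order Spn (17.6 ± 1.02 CPM per kilobase, SD, n = 4), Ace (6.42 ± 1.77), Eno3 (5.63 ± 0.862), Nr4a1 (3.73 ± 0.907), Treml4 (2.90 ± 0.901), Itgax (2.29 ± 0.654), Cx3cr1 (1.59 ± 0.382) and Fabp4 (0.655 ± 0.258). Ace and Eno3 differed by less than their SD, as did Nr4a1 and Treml4 and likewise Treml4 and Itgax. In the stress group Spn again stood first at 15.3 ± 1.79, followed by Eno3 (3.87 ± 0.564), Nr4a1 (3.34 ± 0.651) and Ace (3.32 ± 1.59), which lay within their SD of each other. Treml4 (2.25), Cx3cr1 (1.97) and Itgax (1.71) came next, and Fabp4 was last in both groups, at 1.01 ± 0.466 under stress.

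A ratio of counts within a library does not depend on how libraries are scaled. Each member was therefore divided by Csf1r, the receptor of the growth factor that both monocyte classes need, and by Ly6c2, which is high in classical monocytes. Csf1r itself was at 30.5, 22.5, 25.3 and 38.9 CPM in the control samples and at 60.4, 25.8, 33.0 and 49.4 CPM in the stress samples (log2 fold change 0.53, edgeR, adjusted p = 0.164). Ly6c2 was at 11.4, 12.5, 21.5 and 11.7 CPM against 33.6, 17.3, 24.5 and 26.6 CPM (log2 fold change 0.83, adjusted p = 0.034). Ly6c2 has a near-identical neighbour, so that the counting could split its reads.

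Relative to Csf1r, 7 of the 8 members were lower in the stress group. In 4 of them, Nr4a1, Ace, Treml4 and Eno3, every stress sample lay below every control sample, which was the case for 3.83% of all tested genes on this ratio, while 0 members and 0.836% of genes lay wholly above. Nr4a1 had 0.435, 0.457, 0.445 and 0.449 counts per Csf1r count in the control samples, an almost constant ratio, and 0.244, 0.364, 0.322 and 0.246 in the stress samples. The groups did not overlap, and the ratio was 0.649 times as high after stress (p = 0.0286 in a two-sided exact permutation test, 0.0762 after adjustment for 16 ratios). With TMM scaling, Nr4a1 itself overlapped between the groups (log2 fold change -0.15), while Csf1r had a log2 fold change of 0.53. On that scale the larger part of the shift of this ratio thus lay in Csf1r. For Ace the ratio was 1.21, 1.12, 1.10 and 1.18 in the control samples and 0.493, 0.641, 0.333 and 0.263 in the stress samples, 0.355 times as high and again without overlap. Stress replicate 1, which was high for Ace in CPM, did not stand out on this ratio. For Treml4 and Eno3 the ratio was 0.550 and 0.495 times as high, with the same p-values as for Nr4a1. The smallest p that 4 samples against 4 allow is 0.0286, and 0 of the 16 ratios passed an adjusted p of 0.05, while 4 with Csf1r and 2 with Ly6c2 had an unadjusted p under 0.05.

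Spn (0.620 times as high, p = 0.114, adjusted 0.152) and Itgax (0.549 times, p = 0.0857, adjusted 0.125) were lower relative to Csf1r with overlap between the groups (two-sided exact permutation test, n = 4 each). In both, stress replicate 2 reached into the control range. Cx3cr1 stayed nearer to Csf1r, at 0.227 to 0.278 in the control group and 0.176 to 0.251 in the stress group (0.847 times, exact permutation test, p = 0.143). Fabp4 had ratios of 0.0588 to 0.124 in control and 0.0554 to 0.232 in stress samples, with no direction beyond the spread (1.11 times, exact permutation test, p = 0.771).

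**Figure D3:**
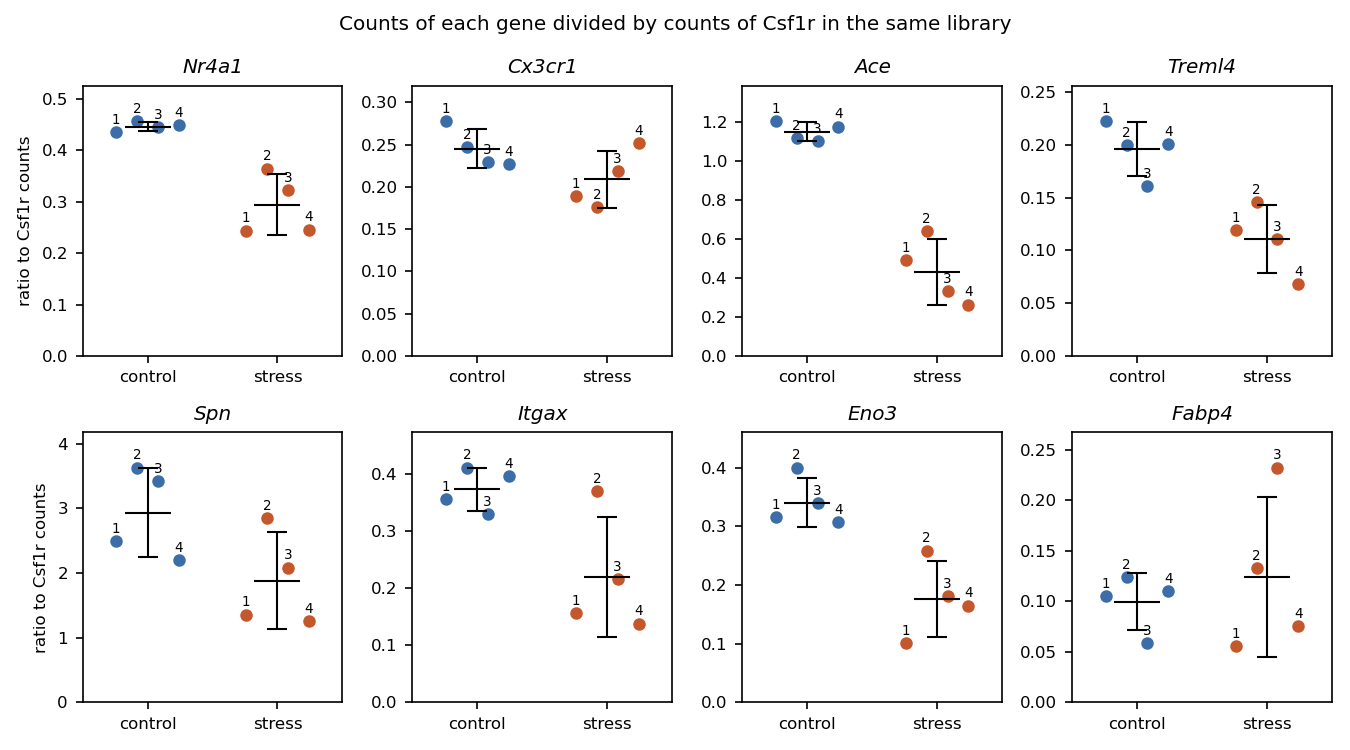
Counts of each member divided by the counts of Csf1r in the same library (vertical axis, linear from 0, no unit), with control samples in blue, stress samples in orange, replicate numbers beside the points and the mean and SD of 4 samples in black. Nr4a1, Ace, Treml4 and Eno3 show no overlap between the groups, and the control values of Nr4a1 lie between 0.435 and 0.457.

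Relative to Ly6c2, which itself was higher in the stress group, 8 of the 8 members were lower. In 2 of them, Ace and Eno3, the groups did not overlap, a share near the 19.5% of all tested genes (0 members and 0.154% of genes lay wholly above). Ace had 3.22, 2.02, 1.30 and 3.93 counts per Ly6c2 count in the control samples and 0.886, 0.955, 0.449 and 0.489 in the stress samples, 0.274 times as high (two-sided exact permutation test, p = 0.0286, adjusted 0.0762). Eno3 was 0.382 times as high, with the highest stress ratio (0.385) just under the lowest control ratio (0.400). Control replicate 3, which had the most Ly6c2 among the control samples, gave the lowest control ratio for all 8 members.

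Members were also set against each other. Of the 28 ratios between pairs of members, a comparison added after the data were seen, 6 did not overlap between the groups. That share is near the 19.2% of all pairs of tested genes, so that the count does not set the members apart. Of these 6, 4 involved Ace. Ace was lower relative to Nr4a1, Cx3cr1, Treml4 and Fabp4. The ratio of Cx3cr1 to Ace was 2.39 times as high in the stress group and the ratio of Nr4a1 to Ace 1.83 times as high (p = 0.0286 each in a two-sided exact permutation test, 0.133 after adjustment for 28 pairs). The other 2 were the ratios of Itgax and Eno3 to Fabp4, 0.493 and 0.445 times as high. None of the 28 passed an adjusted p of 0.05, and the 6 had an unadjusted p under 0.05.

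Across the 8 samples, Ace, Treml4, Itgax and Nr4a1 had Pearson correlations of 0.65 to 0.87 in log2 CPM over their 6 pairs. Spearman's rho was only 0.38 for Nr4a1 with Itgax. These 4 were not chosen in advance, and pairs with other members reached such values, as Ace did with Spn (0.81) and Eno3 (0.69). How often pairs of all tested genes reach them was not counted. The highest of the 28 pairs was Ace with Treml4 (r = 0.87, Spearman's rho 0.93, and r = 0.92 for deviations from the group means). Cx3cr1 went with Nr4a1 (r = 0.69) but not with Ace (0.08) or Itgax (-0.04), and Fabp4 went against Spn (-0.53). For deviations from the group means, r of Cx3cr1 was 0.81 with Nr4a1, 0.42 with Ace and 0.13 with Itgax, and r of Fabp4 with Spn was -0.28. These correlations describe 8 samples that share their library scaling. Among the genes outside the program, Slc35d1 (r = 0.97), Adgre4 (r = 0.97) and Pms1 (r = 0.96) were the 3 most like Ace, Adgre4 being an adhesion receptor of non-classical monocytes. Tiam2 (r = 0.96) was most like Nr4a1, Rap1gap2 (r = 0.97) was most like Treml4, Zfhx3 (r = 0.95) most like Cx3cr1, and Cd40lg, a T cell ligand, most like Eno3 (r = 0.98). Hcrtr2 (r = 0.96), Pfkp (r = 0.94) and Fbxo30 (r = 0.98) were most like Spn, Itgax and Fabp4. All of these genes were picked for the highest r among the tested genes outside the members, so that high values were built in.

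A further 13 genes that mark non-classical monocytes were read beside the members, of which 12 were tested. They were mixed in direction, with 5 above and 7 below 0 and a median of -0.24 on the log2 scale. At an adjusted p below 0.05, Cd300e and Pou2f2 were lower and Pglyrp1 was higher. Cd300e, an activating receptor of this cell class, fell from 4.18 ± 1.38 to 1.48 ± 0.962 CPM without overlap between the groups (SD, n = 4 each; log2 fold change -1.49, edgeR, adjusted p = 0.041). Pou2f2, the transcription factor OCT2, which B cells make as well, fell from 34.2 ± 2.58 to 21.9 ± 5.59 CPM without overlap (adjusted p = 0.0174). Of the 8 B cell markers 8 had a log2 fold change below 0 and 5 passed an adjusted p of 0.05, and the part of these cells in Pou2f2 was not tested. Pglyrp1, which neutrophils also carry, rose from 8.74 ± 1.58 to 13.4 ± 2.05 CPM (adjusted p = 0.0161), and 7 of the 8 neutrophil markers were higher at an adjusted p below 0.05. Adgre4 (log2 fold change -0.46, adjusted p = 0.141) and Ear2 (-0.51, adjusted p = 0.198) had values below 0, and Fcgr4 (0.69, adjusted p = 0.188) and Cd36 (0.68, adjusted p = 0.106), which platelets and macrophages share, had values above 0. Ear2 belongs to a family of near-identical copies, between which reads could be split.

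Of 12 regulators of the monocyte lineage, 6 were above and 6 below 0. Spi1, which encodes PU.1, rose from 25.6 ± 2.07 to 44.0 ± 8.04 CPM (SD, n = 4 each; edgeR, adjusted p = 0.00249) and Cebpb, which acts upstream of Nr4a1 in Ly6C-low monocytes, from 3.94 ± 1.75 to 11.7 ± 8.11 CPM (adjusted p = 0.0331). Both factors are active in neutrophils and classical monocytes too. Klf2 (log2 fold change 0.08, 95% interval -0.19 to 0.35), Irf2 (-0.07, 95% interval -0.28 to 0.14), Notch2 (-0.19, 95% interval -0.55 to 0.17) and S1pr5 (-0.32, 95% interval -0.97 to 0.32), a receptor for the exit of these cells from the marrow, did not pass. Irf8 was at 54.6 ± 1.78 and 44.2 ± 4.63 CPM without overlap (adjusted p = 0.0654).

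Markers of classical monocytes went the other way from most members. Of 10 genes 8 were called higher and 1 lay below 0. Their median was 1.51 on the log2 scale, and they summed to 514.9 to 628.4 CPM in the control group and 864.5 to 1361.8 CPM in the stress group. Ccr2, the receptor that brings classical monocytes out of the marrow, rose by a log2 fold change of 1.70 (edgeR, adjusted p = 0.00742). Neutrophil and platelet markers were higher too, with medians of 1.49 and 0.95. The part of neutrophils and platelets in the classical monocyte list was not tested. By flow cytometry, the study found fewer monocytes in blood after restraint, which is a count of cells and not a share of RNA. Of the 8 genes shared by both monocyte classes 2 were called higher, with a median of 0.62. The members summed to 148.4 to 197.3 CPM in the control group and 121.4 to 163.7 CPM in the stress group, with Spn the largest part.

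**Figure D4:**
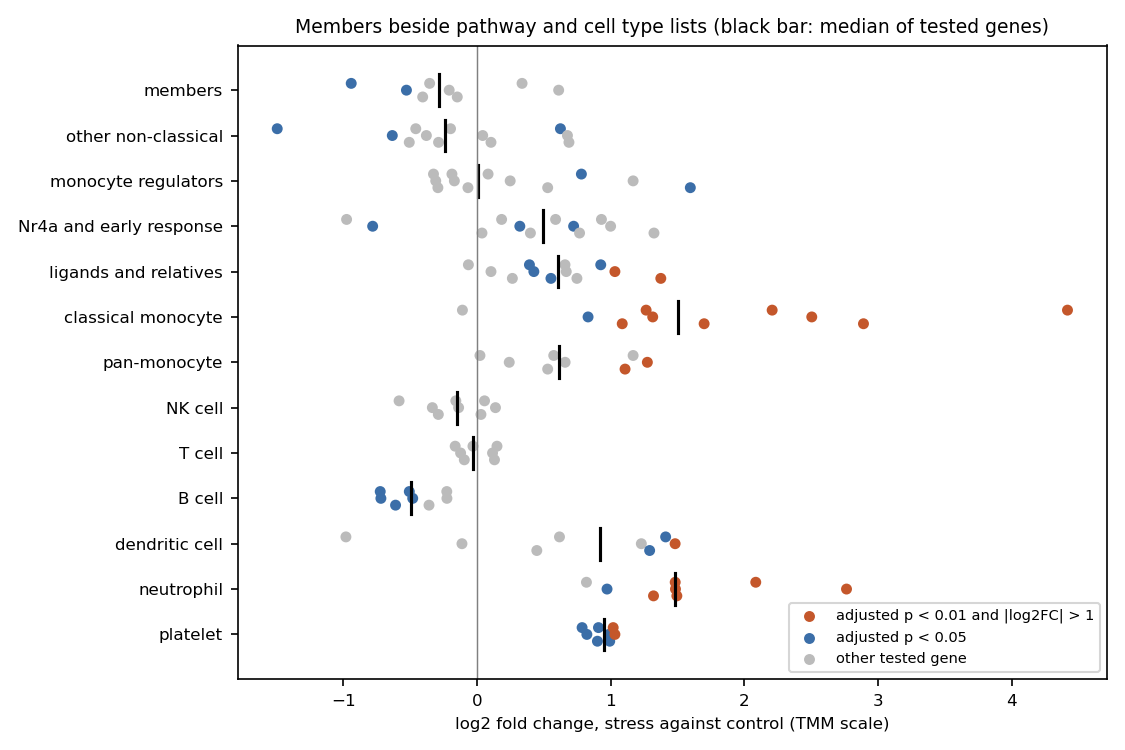
Log2 fold change of every tested gene in each list, stress against control on the TMM scale (horizontal axis), with genes called at an adjusted p below 0.01 and an absolute log2 fold change above 1 in orange, other genes at an adjusted p below 0.05 in blue, the rest in grey, and the median as a black bar. The medians are -0.28 for the members and -0.24 for the other non-classical genes. They are 1.51 for the classical monocyte, 1.49 for the neutrophil and 0.95 for the platelet genes.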

How the data were processed

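Peripheral blood RNA of 4 control and 4 stress samples was analysed. The deposited values are raw counts of reads for each gene symbol, made by the authors without normalization, and HISAT2, featureCounts and the build mm10 are named in the submitters' processing notes. The annotation, strand setting and tool versions are not given in the sources used here, so that reads of overlapping genes cannot be told apart. Genes that reached 10 counts in 4 or more samples were tested with edgeR 4.0.16 in R 4.3.3 (TMM, robust quasi-likelihood test, Benjamini-Hochberg adjustment over all 11718 genes), on which 95% intervals also rest, and DESeq2 1.42.0 and limma 3.58.1 served as alternatives. The edgeR step was tested on simulated data. Ratios used a pseudocount of 0.5 counts and two-sided exact permutation tests. The members, lists and tests were chosen with earlier results of these data known. Named were the members, called list genes or else up to 4 (pathway lists) or 3 (cell markers) with the smallest p, further genes of the lists chosen after their values were seen, and the genes most correlated with each member (log2 CPM, prior count 2). Coordinates and exon lengths came from GENCODE M21 (GRCm38), upstream sequences from RefSeq (GRCm38.p6), and motifs were chosen with the sequences in view. Replicates of a group differed by far more than sampling noise.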

Additional observations from a re-analysis of the deposited data

Results flagged for a closer look

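In the 16 groups of 4 samples examined (8 members in 2 groups), 2 samples stood apart from the other 3 of their group by more than Dixon's 95% limit, where chance gives about 1 in 20. Treml4 was at 7.18 CPM in stress replicate 1, while the other stress samples lay between 3.36 and 3.76 CPM. Fabp4 was at 7.67 CPM in stress replicate 3, while the other stress samples lay between 3.34 and 3.71 CPM.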

How the results depend on the processing

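The 8 members gave 0 calls higher under all alternatives tried. The number called lower went from 0 to 2 (Ace and Eno3) on total counts alone and with an adjusted p below 0.05 and no fold threshold, to 1 (Ace) on total counts outside the haemoglobin genes, and ranged from 0 to 1 when each sample was left out in turn, the 1 being Ace without stress replicate 1. Reversed directions were those of Cx3cr1 (log2 fold change -0.32 on total counts alone and -0.018 on total counts outside the haemoglobin genes), Fabp4 (-0.17 on total counts alone) and Nr4a1 (-0.25 to 0.047 when each sample was left out in turn, above 0 without control replicate 4). The log2 ratio of Fabp4 to Csf1r became -0.08 without control replicate 3 and -0.22 without stress replicate 3 (range -0.22 to 0.47), and that to Ly6c2 became 0.073 without control replicate 4 and 0.040 without stress replicate 1 (range -0.73 to 0.073). Over the whole table, edgeR called 198 genes higher and 2 lower. DESeq2 called 307 and 12, total counts alone 14 and 729, total counts outside the haemoglobin genes 57 and 136, and an adjusted p below 0.05 with no fold threshold 1223 and 432, while the table without a count filter gave 4 lower. Leaving out each sample in turn gave 76 (without control replicate 2) to 338 (without control replicate 4) called higher, with 96 without control replicate 3, and 1 to 8 called lower, with 1 without control replicate 1, 2 or 3, 5 without control replicate 4, 4 without stress replicate 1 and 8 without stress replicate 4. With the replicate number as a block, 1 gene was called lower and 189 higher, and 0 members were called. No sign was seen that the numbers pair the samples: the correlations of deviations between same-numbered samples were 0.0621, 0.000441, -0.0445 and -0.16. So few samples cannot show that none were paired. The ratio tests passed 0 ratios under all alternatives, and the exact sign-flip test of 4 pairs allows no p below 0.125. The cause of these shifts was not tested. With 48 to 282 counts of Treml4 and 74 to 144 of Fabp4 per sample, the intervals given above limit what could be detected for these genes.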
